A study of Mus musculus with 2 samples.

Results

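The *Pitx* genes encode paired-like homeodomain transcription factors of the bicoid type, and the *Tbx* genes encode transcription factors that bind DNA through the T-box domain. Both families act in the patterning of the embryo. *Pitx1* and *Tbx4* act in the hindlimb, *Tbx5* acts in the forelimb, and *Tbx15* and *Tbx18* act in the skeleton and the dermis. All 9 genes described here (*Pitx1*, *Pitx3*, *Tbx1*, *Tbx2*, *Tbx3*, *Tbx4*, *Tbx5*, *Tbx15* and *Tbx18*) were found by symbol among the 24421 rows of the deposited count table. The list was set by name, with earlier results of these data known, and does not hold every gene of either family.

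The study compared gene expression between cartilage cells and skin cells of newborn mice by RNA-Seq. There was 1 library of primary chondrocytes and 1 of primary dermal fibroblasts. The chondrocytes were released from rib cartilage with collagenase, after an earlier digestion meant to strip soft tissue from the ribs, and served as primary cells for up to 2 passages, and the fibroblasts came from dorsal skin digested with collagenase. Mice were not selected by sex. The strain, genotype, sex and number of the animals behind these 2 libraries, and any sorting of the cells, are not given in the sources used here. Summed over all genes, the chondrocyte library held 18788599 reads and the dermal fibroblast library 17563724. With a single library of each cell type, no difference below has a replicate check, and no p-value was computed.

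The libraries matched their labels. Each of the 9 chondrocyte markers examined was over 2-fold higher in chondrocytes, *Col2a1* (type II collagen) with 1447098 counts against 0 and *Sox9* with 5045 counts against 342. *Col2a1* and *Matn1* (matrilin 1) were at 0 in dermal fibroblasts. Of the 9 fibroblast markers, 8 were over 2-fold higher in dermal fibroblasts and *Lum* (lumican) was not. *Col1a1* (type I collagen) had 39143 counts in chondrocytes against 322379 in dermal fibroblasts.

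The 9 genes separated into a group with more reads in chondrocytes and a group with more reads in dermal fibroblasts. Counts were scaled by the trimmed mean of M-values (TMM), a factor that keeps a few very abundant genes such as *Col2a1* from lowering all others. After scaling, the chondrocyte value exceeded 2-fold for *Pitx1*, *Pitx3* and *Tbx3*. The dermal fibroblast value exceeded 2-fold for *Tbx1*, *Tbx4*, *Tbx5*, *Tbx15* and *Tbx18*, and *Tbx2* lay within 2-fold. Thus 3 of 9 genes were called higher in chondrocytes, beside 13.0% of all 15616 genes with more than 3 counts in at least 1 library, and 5 of 9 were called higher in dermal fibroblasts, beside 16.6% of all genes. All 9 passed this count filter. Because the list was chosen with earlier results of these data known, the shares describe these genes and test nothing. The median log2 fold (chondrocytes over dermal fibroblasts) was -1.94 over the 9 genes and 0.00 over all genes.

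The 95% intervals are Clopper-Pearson intervals for folds and shares, exact conditional intervals for ratios of folds and exact Poisson intervals for levels. They cover counting error alone, since each cell type had 1 library. The libraries had no molecular identifiers and reads copied by PCR are not independent, so the intervals may be too narrow even for that error. The whole interval lay beyond 2-fold for *Pitx1* and *Pitx3* in chondrocytes, beside 6.67% of all genes, and for *Tbx5*, *Tbx15* and *Tbx18* in dermal fibroblasts, beside 9.90% of all genes. For 5 of the 9 genes at least 1 library held fewer than 20 reads, and their intervals are wide. In whole-population RNA, a smaller share of expressing cells and less RNA per cell cannot be told apart.

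**Figure D1:**
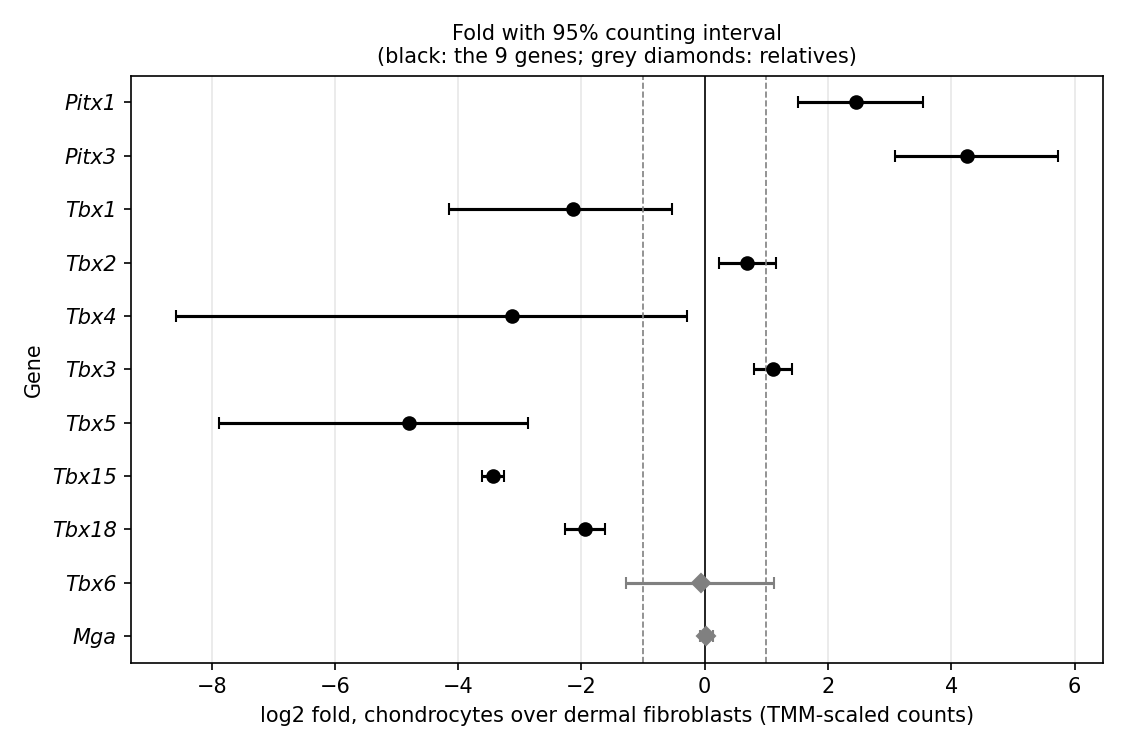
Log2 fold of TMM-scaled counts in chondrocytes over dermal fibroblasts (x axis) for the 9 genes (black circles) and 2 other T-box genes (grey diamonds), with bars for the 95% counting interval and dashed lines at 2-fold. *Pitx1* and *Pitx3* sit to the right at 2.46 and 4.26, and *Tbx2* and *Tbx3* sit to the right of their neighbours *Tbx4* and *Tbx5*.

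*Pitx1* (chromosome 13 of GRCm38.p6, 55825044 to 55836190, minus strand), the hindlimb determinant, had 59 counts in chondrocytes against 11 in dermal fibroblasts. It was 5.51-fold higher in chondrocytes (interval 2.87 to 11.6). Both libraries held few reads of this gene. Its level was 1.24 RPKM (scaled counts divided by library size and exon length) in chondrocytes, with an interval from 0.944 to 1.60, at the 32.7th percentile of the genes counted there. In dermal fibroblasts its level was 0.225 RPKM (interval 0.112 to 0.403), at the 16.9th percentile. The level intervals of both libraries did not overlap.

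*Pitx3* (chromosome 19, 46135281 to 46148325, minus strand) is known from the lens, from midbrain dopaminergic neurons and from skeletal muscle. It had 112 counts in chondrocytes against 6 in dermal fibroblasts and was 19.2-fold higher in chondrocytes (interval 8.54 to 53.4). Chondrocytes were clearly the higher library, and with counts under 10 set to 10 the fold was 11.5. Set against *Pitx1* by the ratio of the folds, which does not depend on the scaling, the *Pitx3* fold was 3.46 times that of *Pitx1* (interval 1.11 to 12.0). The level of *Pitx3* was 3.97 RPKM in chondrocytes (interval 3.27 to 4.77) and 0.207 RPKM in dermal fibroblasts (interval 0.0759 to 0.450). In level, *Pitx1* was 0.313 times *Pitx3* in chondrocytes and 1.09 times *Pitx3* in dermal fibroblasts.

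Skeletal muscle transcripts were present in both libraries, and many were higher in chondrocytes, as *Pitx3* was. Of the 15 muscle markers, 9 were over 2-fold higher in chondrocytes and 0 in dermal fibroblasts, beside 13.0% and 16.6% of all genes. The summed level of these markers was 2302 CPM (counts relative to the TMM-scaled library size) in chondrocytes and 1529 CPM in dermal fibroblasts. None of them was at 0 in either library. The gene with the most reads summed over both libraries, *Actc1* (cardiac alpha-actin, used by immature muscle), was within 2-fold at 7288 and 7970 counts, and the embryonic myosin gene *Myh3* had 7784 and 6497. Folds varied within the list. *Pax7*, the satellite cell factor, had 120 counts in chondrocytes against 4 in dermal fibroblasts, *Myf5* had 36 and 1, and *Myod1* had 2328 and 496, whereas *Myog* (myogenin) had 3526 and 1728. The fold of *Pitx3* was 0.623 times that of *Pax7*, with an interval from 0.126 to 2.71 that includes equality, and 3.98 times that of *Myod1* (interval 1.76 to 11.1). Muscle marker reads were counted in chondrocytes although soft tissue had been digested first, and the part of muscle cells in the *Pitx3* reads was not tested.

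The annotated span of *Pitx3* also meets another gene. Its last 414 bases (46135281 to 46135694) are shared with *Elovl3*, a fatty acid elongase gene on the opposite strand. *Elovl3* had 20 counts in chondrocytes against 2 in dermal fibroblasts, a 10.3-fold difference (interval 2.50 to 90.6) in the direction of *Pitx3*. The libraries were stranded, but the strand setting of the counting is not given in the sources used here, so the genes' reads in the shared bases cannot be told apart. The ratio of both folds was 1.86 (interval 0.172 to 11.4). *Tbx1*, *Tbx3*, *Tbx5* and *Tbx15* also overlap an annotated long noncoding RNA, none of which is a row of the table under its RefSeq symbol.

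*Tbx15* (chromosome 3, 99240348 to 99354260, plus strand) had the highest level in RPKM of the 9 genes in dermal fibroblasts. The gene is known for the dorsoventral boundary of the mouse coat and for skeletal growth. It had 287 counts in chondrocytes against 3185 in dermal fibroblasts and was higher in dermal fibroblasts by 10.8-fold (interval 9.57 to 12.2). Its level was 46.2 RPKM in dermal fibroblasts (interval 44.6 to 47.8), at the 92.7th percentile of the genes counted there. In chondrocytes it was 4.27 RPKM, at the 51.1st percentile, and it was the highest of the 9 levels in this library as well. There its interval (3.79 to 4.80 RPKM) overlapped that of *Pitx3*, and the order of these levels was not resolved at this depth.

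*Tbx18* (chromosome 9, 87702800 to 87731260, minus strand) belongs to the same subfamily as *Tbx15* and is known from the sclerotome, the dermal papilla and mural cells. It had 101 counts in chondrocytes against 397 in dermal fibroblasts, 3.83-fold higher in dermal fibroblasts (interval 3.07 to 4.81). Both genes thus favoured dermal fibroblasts, but to different degrees. The *Tbx15* fold toward dermal fibroblasts was 2.82 times that of *Tbx18* (interval 2.18 to 3.64). The level of *Tbx18* was 1.20 RPKM in chondrocytes (interval 0.981 to 1.46) and 4.61 RPKM in dermal fibroblasts (interval 4.17 to 5.09). In RPKM the level of *Tbx15* was 3.55 times that of *Tbx18* in chondrocytes and 10.02 times in dermal fibroblasts.

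Markers of dermal papilla cells and pericytes were mixed. Of 9 such markers, 5 exceeded 2-fold in dermal fibroblasts and 2 in chondrocytes, beside 16.6% and 13.0% of all genes, and none was at 0. Their summed level was 699 CPM in chondrocytes and 243 CPM in dermal fibroblasts, of which the gene with the most reads, the proteoglycan gene *Cspg4*, supplied 10824 and 2976 counts. *Sox2*, a dermal papilla factor, had 9 counts in chondrocytes against 78 in dermal fibroblasts, and *Prdm1* had 11 and 213. *Corin*, another dermal papilla gene, had the opposite direction with 38 and 5. The *Sox2* fold toward dermal fibroblasts was 2.202 times that of *Tbx18* (interval 1.05 to 5.17). The part of these cells in the *Tbx18* reads was not tested.

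*Tbx1* (chromosome 16, 18580979 to 18590671, minus strand), the pharyngeal arch gene, was scarce. It had 4 counts in chondrocytes against 18 in dermal fibroblasts. Dermal fibroblasts had more reads, but few. The fold toward dermal fibroblasts was 4.38, with an interval from 1.44 to 17.8 that reaches below 2-fold. Its level was 0.123 RPKM in chondrocytes (interval 0.0336 to 0.315) and 0.540 RPKM in dermal fibroblasts (interval 0.320 to 0.853). With counts under 10 set to 10 it was 1.75-fold higher in dermal fibroblasts.

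**Figure D2:**
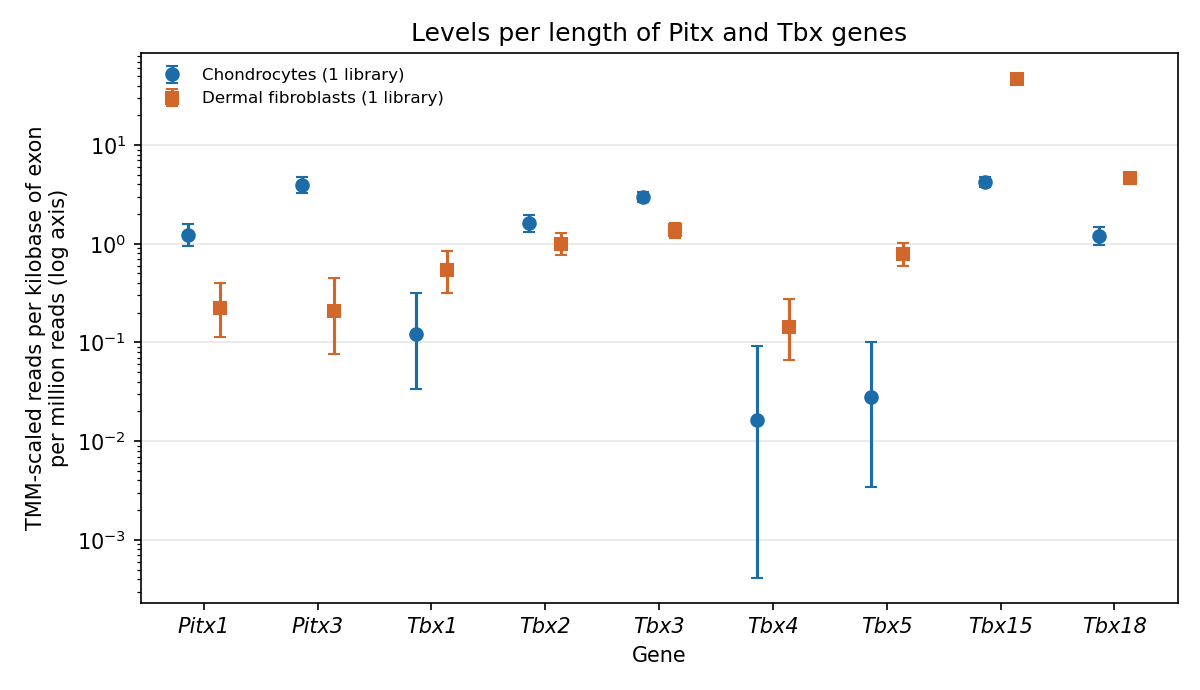
Level of each of the 9 genes (x axis) in RPKM on a log axis (y axis) in the chondrocyte library (blue circles) and the dermal fibroblast library (orange squares), with bars for the exact 95% Poisson interval of the count. *Tbx15* in dermal fibroblasts stands apart at 46.2 RPKM, and *Tbx4* and *Tbx5* in chondrocytes rest on 1 and 2 reads.

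*Tbx2*, *Tbx3*, *Tbx4* and *Tbx5* form a subfamily that lies in 2 gene pairs, *Tbx2* beside *Tbx4* on chromosome 11 and *Tbx3* beside *Tbx5* on chromosome 5. *Tbx2* and *Tbx3* encode repressors, and *Tbx4* and *Tbx5* encode activators that start limb outgrowth. Of the repressor genes, *Tbx3* was over 2-fold higher in chondrocytes and *Tbx2* lay within 2-fold. Both activator genes exceeded 2-fold in dermal fibroblasts, *Tbx4* with an interval that reaches below 2-fold.

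*Tbx3* (119670534 to 119684724, plus strand) had 285 counts in chondrocytes against 136 in dermal fibroblasts. It was 2.15-fold higher in chondrocytes (interval 1.75 to 2.66). With total counts as the scaling it was 1.96-fold higher, which ended the call. *Tbx2* (85832615 to 85841948, plus strand) had 105 counts in chondrocytes against 67 in dermal fibroblasts, which is 1.61-fold (interval 1.17 to 2.22). Both were present in both libraries, and the folds of *Tbx2* and *Tbx3* were not resolved from each other, with a ratio of 0.748 (interval 0.510 to 1.10). The level of *Tbx2* was 1.62 RPKM in chondrocytes (interval 1.32 to 1.96) and 1.004 RPKM in dermal fibroblasts. The level of *Tbx3* was 2.96 RPKM in chondrocytes (interval 2.63 to 3.33) and 1.38 RPKM in dermal fibroblasts.

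*Tbx5* (119796514 to 119885220, plus strand) had 2 counts in chondrocytes against 57 in dermal fibroblasts, and was higher in dermal fibroblasts by 27.7-fold (interval 7.34 to 235). *Tbx4* (85886367 to 85916097, plus strand) had 1 count in chondrocytes and 9 in dermal fibroblasts, 8.76-fold higher in dermal fibroblasts with an interval from 1.21 to 384. Chondrocytes held almost no reads of either limb activator. The level of *Tbx5* was 0.0283 RPKM in chondrocytes (interval 0.00343 to 0.102) and 0.786 RPKM in dermal fibroblasts (interval 0.595 to 1.02). The level of *Tbx4* was 0.0164 RPKM in chondrocytes (interval 0.000415 to 0.0914) and 0.144 RPKM in dermal fibroblasts (interval 0.0657 to 0.273). The *Tbx4* fold toward dermal fibroblasts was 0.323 times that of *Tbx5*, with an interval from 0.0153 to 20.7, so their order was not detectable at this depth. With counts under 10 set to 10, *Tbx5* was 5.55-fold higher in dermal fibroblasts and *Tbx4* gave no fold, and with 1 count added to both libraries *Tbx4* was 4.87-fold higher in dermal fibroblasts.

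The intervals for the ratio between neighbours excluded equality when both folds were taken as chondrocytes over dermal fibroblasts. *Tbx3* and *Tbx5* are 111789 bases apart, and in this direction the fold of *Tbx3* was 59.3 times that of *Tbx5* (interval 15.3 to 509). *Tbx2* and *Tbx4* are 44418 bases apart, and in the same direction the fold of *Tbx2* was 13.9 times that of *Tbx4* (interval 1.86 to 624). The long noncoding RNA *Tbx3os2*, named as an opposite strand transcript of *Tbx3*, had 1 count in chondrocytes and 0 in dermal fibroblasts, too few for a fold.

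**Figure D3:**
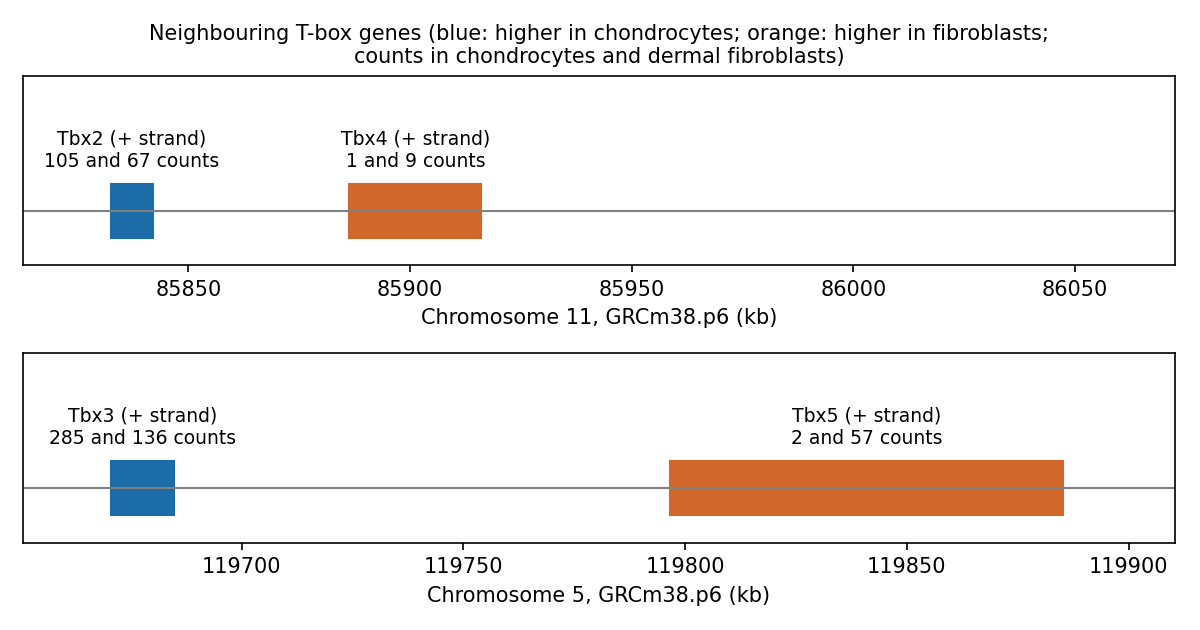
Map to scale of the spans of *Tbx2* and *Tbx4* (chromosome 11) and of *Tbx3* and *Tbx5* (chromosome 5) in GRCm38.p6, with the position in kb on the x axes and the counts in chondrocytes and dermal fibroblasts above each gene. Blue marks a scaled count above that of the other library in chondrocytes (*Tbx3* 2.15-fold, *Tbx2* 1.61-fold and so within 2-fold) and orange one in dermal fibroblasts (*Tbx5* 27.7-fold, *Tbx4* 8.76-fold).

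Across the 7 T-box genes of the list, *Tbx15* and *Tbx3* held like shares of the 785 reads in chondrocytes, 36.6% (interval 33.2 to 40.0) and 36.3% (interval 32.9 to 39.8). In dermal fibroblasts *Tbx15* held 82.3% of 3869 reads (interval 81.1 to 83.5) and *Tbx3* held 3.52% (interval 2.96 to 4.14). *Tbx18* held 12.9% in chondrocytes (interval 10.6 to 15.4) and 10.3% in dermal fibroblasts (interval 9.32 to 11.3), and these intervals overlapped. Corrected for length, *Tbx15* made up 41.8% of the summed RPKM of these genes in chondrocytes and 84.5% in dermal fibroblasts. In the same order, *Tbx3* made up 29.0% and 2.52%, and *Tbx18* made up 11.8% and 8.44%.

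Ordered by RPKM, the levels in chondrocytes ran from *Tbx15* through *Pitx3*, *Tbx3*, *Tbx2*, *Pitx1*, *Tbx18*, *Tbx1* and *Tbx5* to *Tbx4*. Neighbouring intervals in this order did not overlap between *Tbx3* and *Tbx2* or between *Tbx18* and *Tbx1*, and overlapped elsewhere. In dermal fibroblasts the order ran from *Tbx15* through *Tbx18*, *Tbx3*, *Tbx2*, *Tbx5*, *Tbx1*, *Pitx1* and *Pitx3* to *Tbx4*. There *Tbx15* was apart from *Tbx18*, and *Tbx18* from *Tbx3*, while the other neighbours overlapped.

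Of the other T-box genes, 10 were in the table and 4 had more than 3 counts in a library. *Mga*, which encodes a MAX-binding repressor with a T-box, had the most reads, with 1600 counts in chondrocytes against 1614 in dermal fibroblasts. *Tbx6*, a gene of the presomitic mesoderm, had 13 and 14 counts. *Tbx20*, a heart gene, had 10 counts in chondrocytes against 0 in dermal fibroblasts, at least 3.42-fold higher in chondrocytes if the 0 is set to a floor of 3 counts, while its counting interval starts lower, at 2.30. *Eomes* had 0 and 4. *T* (brachyury), *Tbr1*, *Tbx10*, *Tbx19* and *Tbx22* were at 0 in both. The floor of 3 counts used for a count of 0 corresponds to 0.167 CPM in chondrocytes and 0.163 CPM in dermal fibroblasts. The list had 1 gene over 2-fold higher in chondrocytes and 0 in dermal fibroblasts, beside 13.0% and 16.6% of all genes. Its median log2 fold was -0.02. For the gene lists here and below, genes at 0 in 1 library enter the median at that floor.

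Of the paired-type homeobox relatives of *Pitx1* and *Pitx3* described here, *Prrx1*, a gene of limb mesenchyme, had the most reads, with 5030 counts in chondrocytes against 7336 in dermal fibroblasts, and its paralog *Prrx2* had 504 and 798. *Alx1*, a gene of craniofacial mesenchyme, had 1424 counts in chondrocytes against 2 in dermal fibroblasts, 731-fold higher (interval 202 to 6044). Its relative *Alx4* had the other direction, with 23 and 363 counts. *Shox2* had 25 and 500. Relatives of *Pitx1* and *Pitx3* were thus found on both sides.

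Of 19 regulators that act with *Pitx1*, *Tbx4* and *Tbx5* in limb buds, 15 passed the filter. In this list 2 exceeded 2-fold in chondrocytes and 7 in dermal fibroblasts, beside 13.0% and 16.6% of all genes. The median log2 fold was -0.77. *Fgf10*, the limb bud growth factor downstream of *Tbx5*, had 140 counts in chondrocytes against 558 in dermal fibroblasts, a 3.88-fold difference toward dermal fibroblasts (interval 3.22 to 4.70). *Hoxc10*, a hindlimb-level Hox gene, had 6 and 416 counts, and *Hoxc9* had 61 and 281. *Hoxa5* had the opposite direction with 599 and 23, while *Gli3* (1604 and 908) and *Wnt5a* (473 and 829) were within 2-fold. *Isl1*, which acts upstream in the hindlimb, had 1 count and 8 counts, and *Shh* and *Sall4* were at 0 in both libraries.

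*Tbx2* and *Tbx3* are known to repress inhibitors of the cell cycle and E-cadherin. Of 8 genes tied to them in this way or as further growth regulators, 0 exceeded 2-fold in chondrocytes and 3 did in dermal fibroblasts. Over all genes the shares were 13.0% and 16.6%. The median log2 fold of the 8 genes was -0.70. *Cdkn2a* had 16 counts in chondrocytes against 62 in dermal fibroblasts, *Cdkn2b* had 127 and 291, and *Cdh1* (E-cadherin) had 2 and 143. *Cdkn1a*, with the most reads summed over both libraries, was within 2-fold at 5737 and 4800 counts, as was *Ndrg1* at 3500 and 3821. *Cdh1* is also an epithelial gene, and the 8 keratinocyte markers summed to 9.21 CPM in chondrocytes and 249 CPM in dermal fibroblasts, and *Krt14*, with the most reads summed over both libraries, had 17 and 1939 counts. Of the 7 keratinocyte markers that passed the filter, 5 were over 2-fold higher in dermal fibroblasts and none was at 0, and their part in the *Cdh1* reads was not tested.

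The Groucho corepressors, which some T-box factors recruit, had members on both sides. Of 6 genes, 2 were over 2-fold higher in chondrocytes and 2 in dermal fibroblasts, beside 13.0% and 16.6% of all genes. The median log2 fold was -0.88. *Tle1* had 908 counts in chondrocytes against 242 in dermal fibroblasts, and *Tle4* had 371 and 152. *Aes*, with the most reads, had 1641 and 5293, and *Tle6* had 88 and 202.

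For 7 of the members, the gene of the related lists with the nearest log2 fold is given, found among 24 genes with at least 10 counts in a library. With 2 libraries this likeness is a single ratio. *Fgf10* was nearest to *Tbx18* (difference 0.02), *Hoxc9* to *Tbx1* (0.03), *Gsc* to *Tbx3* (0.05) and *Bmp4* to *Tbx2* (0.06). *Sall1* was nearest to *Pitx1* (0.28), *Hoxa5* to *Pitx3* (0.48) and *Shox2* to *Tbx5* (0.51). Some of these genes had few reads, and their likeness is not resolved. *Gsc* had 13 counts in chondrocytes against 6 in dermal fibroblasts, a 2.23-fold difference with an interval from 0.789 to 7.14 that includes equality. *Sall1* had 13 and 2 counts, a 6.68-fold difference (interval 1.51 to 60.9).

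Of the members, 4 had an entry in the RefSeq promoter table of GRCm38.p6, namely *Pitx3*, *Tbx1*, *Tbx4* and *Tbx18*. *Pitx1*, *Tbx2*, *Tbx3*, *Tbx5* and *Tbx15* had no entry. The 250 bases before the annotated start are shown for *Pitx3* and *Tbx18*, the members with an entry whose whole counting interval lay beyond 2-fold, since they had opposite directions. *Pitx3* lies at chr19:46148326-46148575 and *Tbx18* at chr9:87731261-87731510, both on the minus strand and written 5′ to 3′. Capitals mark CAGCTG, a palindromic E-box of the kind bound by basic helix-loop-helix factors such as MYOD1.
Pitx3: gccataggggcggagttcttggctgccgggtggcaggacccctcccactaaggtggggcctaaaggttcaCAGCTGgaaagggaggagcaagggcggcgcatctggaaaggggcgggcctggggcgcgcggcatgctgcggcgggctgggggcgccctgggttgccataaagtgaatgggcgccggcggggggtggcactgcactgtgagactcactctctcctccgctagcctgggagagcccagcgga
Tbx18: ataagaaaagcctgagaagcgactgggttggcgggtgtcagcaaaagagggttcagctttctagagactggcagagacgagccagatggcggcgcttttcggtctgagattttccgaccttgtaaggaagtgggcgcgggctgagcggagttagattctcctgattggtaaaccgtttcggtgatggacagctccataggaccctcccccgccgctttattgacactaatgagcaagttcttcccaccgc

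The *Pitx3* window held 1 CAGCTG, starting 180 bases before the annotated start, and the *Tbx18* window held none. This motif was present in 13.0% of the 32851 promoter windows of the same length. The *Tbx4* window (chr11:85896515-85896764), which belongs to a start inside the gene span given above, also held 1 copy. The other motifs searched on both strands were TAATCC (the bicoid-type site of PITX factors), GGTGTGA (a T-box half-site) and ACAAT (a SOX site), of which no copy was found in these windows or in those of *Tbx1* and *Tbx4*. They were present in 6.25%, 3.33% and 27.7% of all windows. The *Pitx3* window had 68.8% G and C bases and the *Tbx18* window 54.0%, against a median of 52.4% over all windows.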

How the data were processed

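Stranded mRNA libraries were sequenced from a single end. Per the submitters' processing notes, the authors used CASAVA 1.8.2, TopHat2 2.0.13, Bowtie2 2.2.3 and SAMtools 0.1.19 with mm10, and the deposited values are counts of reads for each gene, without normalization. The counting program, its annotation, and its treatment of strand and of reads that fit several paralogs are not given in the sources used here. Of 24421 rows, 6703 were 0 in both libraries and 27 had a date in place of a symbol.

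From the counts, TMM factors were computed with edgeR 4.0.16 in R 4.3.3 (0.954 for chondrocytes and 1.05 for dermal fibroblasts). Folds, 95% Clopper-Pearson intervals and conditional odds ratios for 12 gene pairs (6 of them chosen after seeing the data) were computed with Python 3.11.15, scipy 1.17.1 and pandas 2.3.3, and figures with matplotlib 3.10.9. A count of 0 was set to 3 for a fold. No fold was taken where both counts were 3 or fewer. The depth set the precision, as 3 reads correspond to 0.167 CPM in chondrocytes and 0.163 CPM in dermal fibroblasts. RPKM used union exon lengths of GENCODE vM1 (NCBIM37), matched by symbol for 91.5% of the genes tested, and coordinates came from RefSeq on GRCm38.p6. The calculations were tested on simulated Poisson counts, with changes planted only in genes with many reads. Recovery of changes was thus not tested for genes with few reads, and reads copied by PCR were not simulated. The members and the 5 gene and 11 marker lists were chosen with earlier results of these data known. Genes to name were drawn from the members, the 3 most abundant genes of each list, the nearest genes by log2 fold, overlapping genes and reference genes. Other list members were named after their values were seen, as were the promoter motifs. Some genes of these lists, and the counts, shares and pairs that rest on them, are not reported here. The alternatives were other scalings (total counts, DESeq2 1.42.0 size factors, upper quartile, *Actb*, totals without the 10 most abundant genes), floors, filters and the interval as the call.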

Additional observations from a re-analysis of the deposited data

How the results depend on the processing

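No paired analysis was possible because there was a single library of chondrocytes and of dermal fibroblasts. The number of members over 2-fold higher in dermal fibroblasts was 5, against 3 with a floor of 10 counts, which removes *Tbx1* and *Tbx4* by construction, and 3 with the whole counting interval beyond 2-fold. The latter gave 1041 and 1546 genes higher in chondrocytes and in dermal fibroblasts among all genes, against 2028 and 2585. The number of members over 2-fold higher in chondrocytes was 3, against 2 with total counts or with the whole interval, both without *Tbx3*. Among all genes, total counts gave 1712 higher in chondrocytes and 2962 in dermal fibroblasts, and the floor of 10 counts gave 1433 and 2026. Of 79 recomputed member folds, 78 lay inside the interval given in the report, and none reversed. *Tbx5*, with a floor of 10 counts, was the exception. This tally is not a check of the folds, since several settings could not change them. Every member had reads in both libraries, so a floor of 1 count left each fold as it was. The filter of at least 10 counts only removes genes, and the other scalings moved folds little. *Tbx4* has no value with that floor or with at least 10 counts required. Relative to TMM, total counts moved all log2 folds by -0.14 and *Actb* by 0.12. Depth limits *Tbx1*, *Tbx4* and *Tbx5* most, with 4, 1 and 2 reads in chondrocytes. The ratios between genes do not depend on the scaling. They were not recomputed with other floors, and those with *Tbx4* or *Tbx5* rest on 1 or 2 reads in chondrocytes.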

Other observations

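Marker genes of other cell types were counted in both libraries. Over all genes, 13.0% were over 2-fold higher in chondrocytes and 16.6% in dermal fibroblasts. Of 8 osteoblast and perichondrial genes, 6 were over 2-fold higher in chondrocytes and 1 in dermal fibroblasts. Their sum was nevertheless 429 CPM in chondrocytes and 2175 CPM in dermal fibroblasts, since *Postn* (periostin), with 5333 and 39067 counts, outweighed the rest. *Ibsp* (bone sialoprotein) had 349 counts and 1 count, and *Bglap* (osteocalcin) had 6 and 0.

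The other lists given here had a higher summed level in dermal fibroblasts. Among melanocyte genes 4 of 5 were over 2-fold higher there, summing to 8.98 CPM in chondrocytes and 57.0 CPM in dermal fibroblasts, with the most reads on *Mitf* and with *Dct* and *Tyrp1* at 0 in chondrocytes. Among endothelial genes it was 4 of 5 (13.6 and 40.7 CPM, most reads over both libraries on *Kdr*). Among adipocyte genes it was 2 of 4 (135 and 331 CPM, most reads on *Fabp4*), and among macrophage genes 1 of 4 (42.1 and 70.8 CPM, most reads on *Cd68*). None of the endothelial, adipocyte and macrophage genes was at 0 in either library. The part of these cell types in the reads of the *Tbx* and *Pitx* genes was not tested.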
